A study of Drosophila melanogaster with 6 samples.

Results

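The genes described here were the insulin receptor *InR* and 8 further genes of the insulin and TOR pathway, *chico*, *Pi3K92E*, *Akt*, *Tor*, *S6k*, *foxo*, *Thor* and *rictor*. They were picked by name as members of the pathway, with earlier results of these data known, and all 9 of them were found among the 13416 genes of the comparison table (8 by gene symbol, and *Akt*, listed there as *Akt1*, by its gene identifier). The data came from bulk RNA-seq of central nervous systems dissected from third-instar *Drosophila melanogaster* larvae, with 3 control (w1118) and 3 Alk-YS libraries. Alk-YS larvae were homozygous for a point mutation made in the endogenous *Alk* gene by CRISPR/Cas9, which changes a tyrosine of the kinase domain of this receptor tyrosine kinase to serine. Neither group was treated, and the labels name no driver or transgene in either. The study's stock list gives as its wild-type control a w1118 line that also carries a Cas9 transgene under the germline *vasa* promoter, the line injected to make the mutation, and whether these control libraries or the mutant stock carried it is not given in the sources used here. Each library pooled the nervous systems of 40 to 45 larvae (sex not given), and the labels call the 3 libraries of a genotype biological replicates. The comparison asks whether transcript levels of this growth pathway differ between nervous systems with mutated and unmutated *Alk*.

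Insulin-like peptides bind InR, a receptor tyrosine kinase. The adaptor Chico then recruits the lipid kinase Pi3K92E, and the lipid it makes brings Akt to the membrane. Akt holds the transcription factor Foxo out of the nucleus, and it relieves a brake on the kinase Tor. Tor in its first complex (TORC1) activates S6k and inhibits the translational repressor Thor (4E-BP), while Tor in its second complex, built on Rictor, phosphorylates Akt. In the fly larva the pathway couples nutrition to growth, and in the nervous system it acts in neuroblast reactivation. Alk signaling is known to spare brain growth in starved larvae by acting on the branches downstream of the insulin receptor. Most steps of the pathway are changes in phosphorylation, which RNA levels do not measure.

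The libraries held 18770029 to 22333967 reads assigned to genes. Pan-neuronal, neuroblast and glial markers were present in all 6 libraries, and no marker of these lists stood at 0 in any of them. The summed normalized count of 5 neuroblast markers was 5023 to 7391 in controls and 7386 to 9580 in Alk-YS, with a median log2 fold change of 0.49, and 0 of the 5 passed the test. Of 5 neuron markers 0 passed as well, with sums of 31608 to 41464 and 32023 to 34201 and a median of -0.25, and glial sums were 10061 to 11579 and 10508 to 12852. The part of cell composition in the values below was not tested. Mitochondrial genes took 8.56% to 13.8% of the reads in controls and 9.76% to 11.0% in Alk-YS. RNA of tissues next to the nervous system was also present and differed between libraries. The summed normalized count of 6 fat body markers ranged from 13121 to 127577 in controls and from 3252 to 34917 in Alk-YS, with 1 of the 6 past the test. That of 6 muscle markers was 2755 to 3668 in controls and 1501 to 2101 in Alk-YS, without overlap, with 2 of the 6 past the test. Hemocyte markers, of which 1 of 5 passed, summed to 6110.5 to 10677 and 4548 to 6889. In bulk tissue, fewer cells of a type and less RNA per cell cannot be told apart. *Alk* itself showed no difference in transcript level beyond the spread of the libraries (2136 to 2989 normalized counts in controls, 2472 to 2696 in Alk-YS; log2 fold change 0.05, adjusted p = 0.921 by limma). A point mutation leaves the transcript countable, so this does not check the genotype labels.

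Set side by side as FPKM, which divides the reads of a gene by its length and by library size, the 9 genes spanned a wide range of levels. *Thor* was by far the most abundant, at 203 ± 65.6 FPKM in controls and 146 ± 42.5 in Alk-YS (mean ± SD, n = 3, as for all group values below). *Akt* was next, at 47.0 ± 1.83 and 41.4 ± 1.89 FPKM, and *S6k* followed at 20.2 ± 1.14 and 19.7 ± 0.422. The libraries of these neighbours did not overlap in either genotype, so that *Thor* stood 4.33-fold over *Akt* in controls and *Akt* 2.33-fold over *S6k*. *Pi3K92E* had 16.8 ± 3.00 FPKM in controls, where its libraries overlapped those of *S6k*, and 17.0 ± 0.494 in Alk-YS, where they did not. Below it, without overlap, came *InR* with 10.3 ± 2.08 and 9.89 ± 0.285 FPKM.

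The remaining 4 genes had levels close to that of *InR*. *chico* had 9.70 ± 1.94 FPKM in controls and 10.1 ± 1.01 in Alk-YS, and *Tor* had 9.18 ± 2.18 and 9.21 ± 1.46. *foxo* had 8.46 ± 0.965 and 7.61 ± 0.274 FPKM, and *rictor* 8.22 ± 0.796 and 8.71 ± 1.14. In controls each neighbouring pair from *InR* down to *rictor* overlapped, so their order there is not resolved. In Alk-YS the pairs *InR* and *chico*, and *chico* and *Tor*, also overlapped. There *foxo* was the lowest of the 9, with every library below those of *Tor* (*Tor* to *foxo* ratio of the means 1.21) and of *rictor* (*foxo* to *rictor* 0.874). The receptor and its adaptor thus had overlapping transcript levels, as had *Tor* and *rictor* in both genotypes. The per-library FPKM ratio of *InR* to *chico* was 0.713 to 1.39 in controls and 0.905 to 1.11 in Alk-YS, and that of *Tor* to *rictor* was 1.01 to 1.29 and 0.980 to 1.11.

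**Figure D1:**
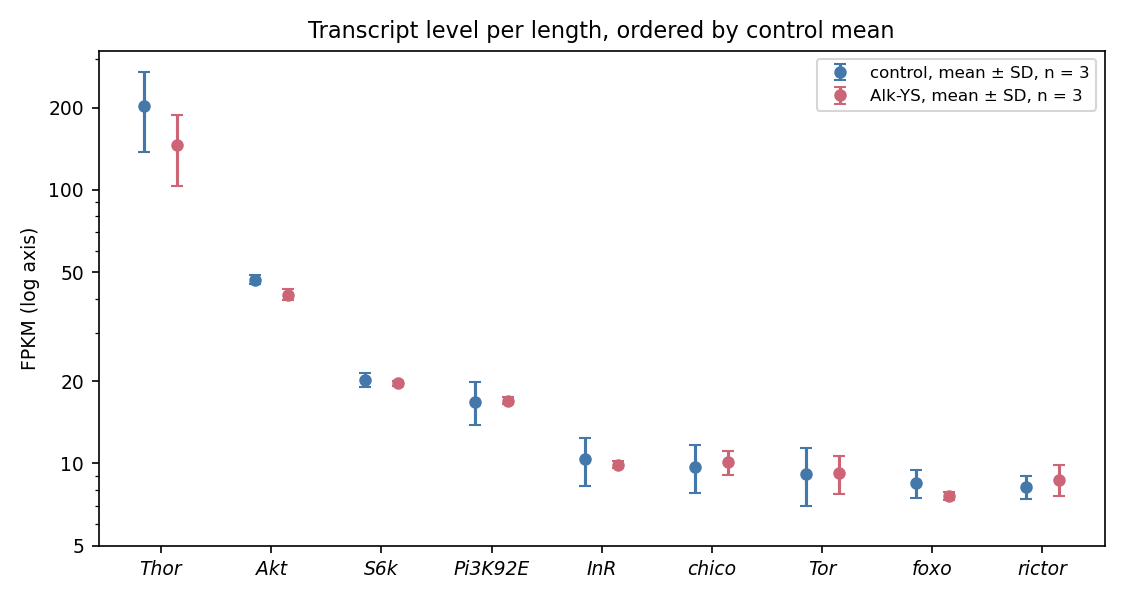
Transcript level per length of the 9 pathway genes (FPKM, log axis; points are means and bars SDs of 3 libraries per genotype), ordered by control mean. *Thor* lies at 203 FPKM in controls and the group from *InR* to *rictor* between 8.22 and 10.3 FPKM; the 2 genotypes keep the same broad order.

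The receptor and its adaptor were compared first, on normalized counts (reads divided by a library scaling factor, for comparing 1 gene across libraries). *InR* (FBgn0013984; BDGP6, chromosome arm 3R, 21570248 to 21619321, minus strand, 4 annotated transcripts with 4 different starts) had 2975, 2353 and 2001 normalized counts in control replicates 1 to 3 and 2408, 2267 and 2335 in the Alk-YS replicates. All 3 Alk-YS values fell inside the control range, and the controls were far more scattered (coefficient of variation 20.2% against 3.03%). Controls were also the more scattered group over all 9668 genes tested, with a median SD on the log2 scale of 0.19 against 0.14. The log2 fold change of Alk-YS over control was -0.05 (SE 0.14, adjusted p = 0.945 by limma), with a 95% interval of 0.774 to 1.21 for the fold. *InR* is a transcriptional target of Foxo in *Drosophila*, so its level is of interest beyond its role as the receptor.

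*chico* (FBgn0024248; arm 2L, 10242512 to 10247078, minus strand), the insulin receptor substrate of the fly, had 675.6, 606.1 and 882.9 normalized counts in controls and 801.3, 787.9 and 664.1 in Alk-YS. Here too every Alk-YS value lay within the control range. The log2 fold change was 0.07 (SE 0.16, adjusted p = 0.917) and the interval of the fold was 0.817 to 1.35. An exon of *chico* overlaps an antisense RNA gene on the other strand, and whether strand was used in counting is not given in the sources used here, so reads of the pair may be mixed.

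Of the 2 kinases that follow, the lipid kinase differed by less than the spread of its libraries and *Akt* showed the only separation of genotypes among the 9 genes. *Pi3K92E* (FBgn0015279; arm 3R, 20628972 to 20634732, minus strand), the catalytic subunit of the class I phosphoinositide 3-kinase, had 1996, 1390.1 and 1678 normalized counts in controls and 1662, 1698 and 1758 in Alk-YS. The Alk-YS libraries sat in the middle of the controls, with a log2 fold change of 0.03 (SE 0.13, adjusted p = 0.961) and an interval of the fold from 0.826 to 1.26.

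*Akt* (FBgn0010379; arm 3R, 16099228 to 16105670, plus strand), the kinase that links the receptor to both Foxo and TORC1, had 4701, 4648 and 4989 normalized counts in controls and 4186, 4399.8 and 4024 in Alk-YS. The lowest control library was above the highest Alk-YS library, while 19.5% of all 9668 genes tested also had groups that did not overlap. The mean was 12.1% lower in Alk-YS, a log2 fold change of -0.19 (SE 0.08) whose interval of the fold reached from 0.776 to 0.997. The unadjusted p of 0.0454 (limma) was the smallest of the 9 genes, as against 13.8% of all genes tested with an unadjusted p under 0.05. Adjusted over all genes it was 0.343, and the exact two-sided permutation test gave p = 0.1, the smallest that 3 against 3 libraries allow. *Akt* thus did not pass the test, and over the alternatives its log2 fold change stayed between -0.22 and -0.15 with adjusted p values of 0.144 to 0.777.

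**Figure D2:**
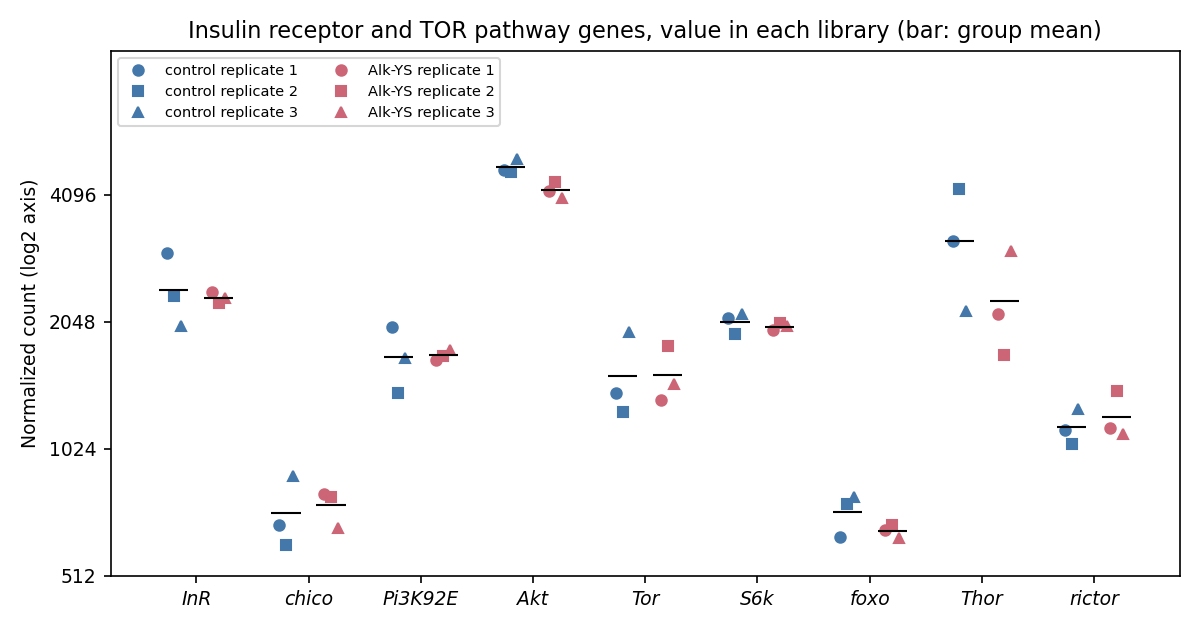
Normalized count (log2 axis) of each of the 9 genes in each of the 6 libraries, with horizontal bars at the group means and a marker shape for each replicate number. Only the *Akt* libraries separate by genotype (4648 to 4989 in controls, 4024 to 4399.8 in Alk-YS), and *Thor* has the widest scatter within both genotypes.

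The kinase *Tor* (FBgn0021796; arm 2L, 13004480 to 13013197, plus strand), the shared catalytic subunit of both TOR complexes, had 1386, 1250.1 and 1934 normalized counts in controls and 1333, 1797 and 1456 in Alk-YS. Control replicate 3 and Alk-YS replicate 2 were high, the other 4 libraries were lower, and the group means were nearly equal at 1524 ± 362 and 1529 ± 240.3. The log2 fold change was 0.02 (SE 0.18, adjusted p = 0.984), and the interval of the fold, 0.758 to 1.35, still allows a change of about that size in either direction.

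*rictor* (FBgn0031006; arm X, 19252111 to 19261240, minus strand), the subunit that defines TORC2, had 1136, 1049 and 1269.7 normalized counts in controls and 1148, 1401 and 1109.6 in Alk-YS. The groups overlapped, and the log2 fold change was 0.08 (SE 0.12, adjusted p = 0.870, fold interval 0.868 to 1.29). *S6k* (FBgn0015806; arm 3L, 5797549 to 5810931, minus strand), the ribosomal protein S6 kinase activated by TORC1, had the smallest range over the 6 libraries, with 2092, 1919 and 2139 normalized counts in controls and 1956, 2035 and 1997 in Alk-YS. Its highest and lowest libraries differed by only 1.11-fold. The log2 fold change of *S6k* was -0.04 (SE 0.08, adjusted p = 0.916), and its fold interval of 0.855 to 1.11 was close to 1 on both sides.

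The transcription factor and the translational repressor at the ends of the pathway both had lower means in Alk-YS without passing the test. *foxo* (FBgn0038197; arm 3R, 14056945 to 14087978, plus strand), whose product enters the nucleus when Akt is inactive, had 632.7, 757.1 and 788.4 normalized counts in controls and 657.4, 673.7 and 627.8 in Alk-YS. Control replicate 1 fell among the Alk-YS libraries, while the other controls were above them. The log2 fold change was -0.15 (SE 0.11, adjusted p = 0.685), with a fold interval of 0.752 to 1.08.

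*Thor* (FBgn0261560; arm 2L, 3478434 to 3479612, plus strand), a short gene whose product binds the cap-binding protein eIF4E and which is itself a Foxo target, had 3176, 4230.4 and 2172 normalized counts in controls and 2141, 1710.4 and 3018 in Alk-YS. Control replicate 3 was as low as Alk-YS replicate 1, and Alk-YS replicate 3 was nearly as high as control replicate 1, so the groups overlapped widely. The mean was 27.6% lower in Alk-YS, the largest difference among the 9, with a log2 fold change of -0.47 (SE 0.27, adjusted p = 0.547) and a fold interval of 0.468 to 1.12. Its residual spread on the log2 scale, an SD of 0.45, was greater than that of 86.6% of the genes tested. The size of the difference rested on single libraries. It was -0.72 without control replicate 3 (adjusted p = 0.149) and -0.69 when Alk-YS replicate 3 was left out (adjusted p = 0.432). It was -0.24 when control replicate 2 was left out and -0.28 for Alk-YS replicate 2, and so negative in each case.

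**Figure D3:**
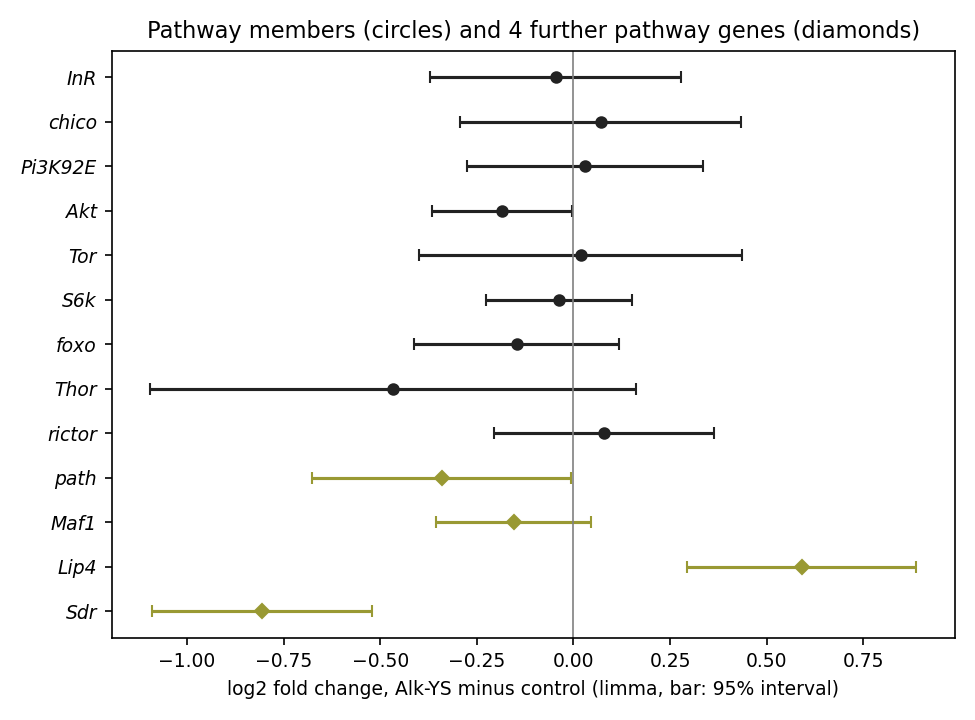
Log2 fold change of Alk-YS over control with its 95% interval from limma, for the 9 genes (circles) and for *path*, *Maf1*, *Lip4* and *Sdr* of the same pathway (diamonds). The interval of *Thor* is the widest among the 9, that of *Akt* ends at -0.0049, and *Sdr*, at -0.81, is the only gene shown with an adjusted p under 0.05.

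None of the 9 genes passed an adjusted p under 0.05 by limma (0 higher, 0 lower), against a background of 2.97% of all genes tested, with 1.26% higher and 1.71% lower in Alk-YS. In this fit 1 gene, *Akt*, was under 0.05 before adjustment. Over the alternatives its unadjusted p lay between 0.0121 (trend with gene length removed) and 0.167 (without Alk-YS replicate 3), both by limma. *Thor* was under 0.05 before adjustment by limma without control replicate 3 (0.0162) and without Alk-YS replicate 3 (0.0372). The count of called members was also 0 with edgeR, which called 2.7% of all genes, and with DESeq2, which called 6.36%, both run on reads recovered from the normalized counts; their lowest adjusted p among the 9, for *Akt*, was 0.328 and 0.240. Fold changes were positive for 4 members and negative for 5, with a median of -0.04 on the log2 scale beside 0.01 for all genes tested. The median size of the difference, regardless of sign, was 0.07 for the 9 genes and 0.13 for all genes tested. A p that misses the threshold does not show equal levels, and the intervals set the limit. For the 8 genes other than *Thor* the bounds of the fold lay between 0.752 and 1.35, and for *Thor* the lower bound was 0.468.

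The scatter between libraries of 1 genotype differed widely among the 9 genes. Its pooled SD on the log2 scale exceeded that of 86.6% of the genes tested for *Thor* and 72.6% for *Tor*. The shares were 4.46% for *Akt* and 4.94% for *S6k*, and 27.9% to 61.9% for the rest. Control replicate 3 was the highest library for 5 of the 9 and control replicate 2 the lowest for 5. Measured against their own group means, 7 of the 9 genes were above it in control replicate 3 and 6 in Alk-YS replicate 2. The same counts over all genes tested were not made. *Thor* ran opposite to *Tor* in 5 of the 6 libraries. Relative to the mean over all libraries, *Thor* was at 0.69 and *Tor* at -0.27 on the log2 scale in control replicate 2, and they were at -0.61 and 0.25 in Alk-YS replicate 2. In control replicate 3 the values were -0.27 and 0.36.

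Short and long transcripts as a whole moved in the same libraries. The median deviation of the 1520 genes under 1000 bases was 0.22 in control replicate 2, -0.18 in control replicate 3 and -0.20 in Alk-YS replicate 2. That of the 1425 genes over 5000 bases was -0.11, 0.08 and 0.09 in these libraries. *Thor*, with 755 bases of exon in the authors' table, belongs to the first class, and *Tor*, with 7987 bases, to the second. *rictor*, with 6739 bases, and *InR*, the longest with 11367, also belong to the second. In these libraries *rictor* was at -0.17, 0.11 and 0.25. *InR* was at -0.01, -0.25 and -0.07 and did not follow the long genes in control replicate 3 or Alk-YS replicate 2. When the trend with length was removed within each library, an alternative chosen after the data were seen, *Thor* changed from -0.47 to -0.41 (adjusted p = 0.339 by limma) and *Akt* from -0.19 to -0.20 (adjusted p = 0.144). The fat body marker sum was 54879, 127577 and 13121 in control replicates 1 to 3, beside *Thor* at 0.28, 0.69 and -0.27. In Alk-YS replicates 1 to 3 it was 14206, 34917 and 3252, beside *Thor* at -0.29, -0.61 and 0.20. The part of fat body RNA in the *Thor* values was not tested.

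**Figure D4:**
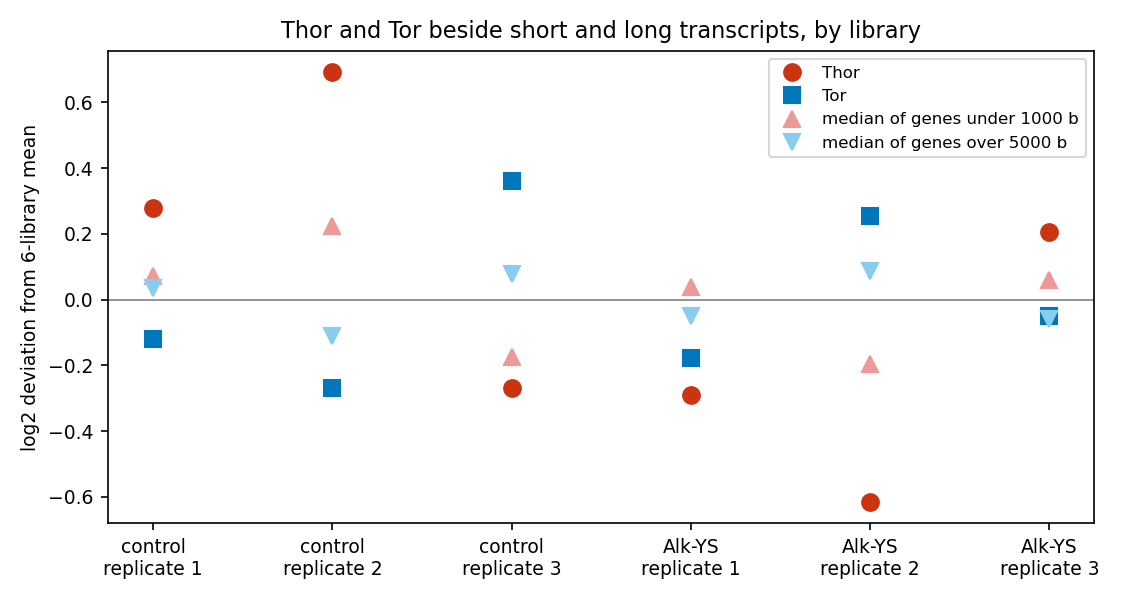
Deviation of *Thor* and *Tor* in each library from their mean over the 6 libraries (log2), beside the median deviation of genes under 1000 and over 5000 bases. *Thor* (0.69 in control replicate 2, -0.61 in Alk-YS replicate 2) lies on the same side as the short genes in all libraries except Alk-YS replicate 1, with wider swings.

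The genes whose values over the 6 libraries ran most closely with these patterns, among the 8341 genes that averaged 50 or more normalized counts, were ranked by Pearson's r of the log2 values as a description only. For *InR* they were *miple* (r = 0.997), *CG15803* (0.989) and *CG12991* (0.986). For *Tor* they were the nucleoporin gene *Nup154* (0.997), the dicer gene *Dcr-1* (0.995) and *CG13850* (0.994). For *Thor* they were *CG5656* (0.992), *CG10320* (0.989) and the mitochondrial ribosomal protein gene *mRpL14* (0.987). Each value rests on 6 points, the candidates were ranked by it, and all genes share the depth and length profile of their library.

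Ratios between genes of the pathway were compared within libraries on FPKM. The *Thor* to *S6k* ratio, both TORC1 substrates, was 6.57 to 14.3 in controls and 5.44 to 9.78 in Alk-YS (exact permutation p = 0.4). The ratio of *Thor* to *eIF4E1*, the main target of its product, was 0.693 to 1.201 and 0.539 to 0.802 (exact permutation p = 0.2). *Akt* to *foxo* was 5.19 to 6.28 and 5.38 to 5.52 (exact permutation p = 1.0). All of these overlapped between genotypes. *Thor* was below *eIF4E1* in each Alk-YS library and in control replicates 1 and 3 (0.972 and 0.693). It was above *eIF4E1* only in control replicate 2 (1.201).

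The other genes of the pathway were taken from 6 lists with 52 genes, of which 48 could be tested. Among these, 1 passed the test, lower in Alk-YS, and 0 were higher (limma; background 2.97% of all genes tested). At an unadjusted p under 0.05, 1 was higher and 5 were lower (background 13.8%, with 586 higher and 745 lower of all 9668 genes tested). With 7 of 48 genes whose groups did not overlap, or 14.6%, the lists stood near the background of 19.5%. Their median log2 fold change was -0.02.

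The gene that passed was *Sdr*, which encodes a secreted decoy of the insulin receptor that binds insulin-like peptides (arm 3R, 14918628 to 14923083). It had 486.4, 596.1 and 573.8 normalized counts in controls and 296.9, 328.8 and 317.2 in Alk-YS. Every Alk-YS library was below every control. The fall was to 0.572 of the control level (interval 0.469 to 0.697; log2 fold change -0.81, SE 0.12, adjusted p = 0.0154 by limma; 0.0130 by edgeR and 5.62e-06 by DESeq2). The adjusted p rose to 0.0766 when control replicate 2 was left out, to 0.0691 for Alk-YS replicate 1 and to 0.0680 for Alk-YS replicate 3, with log2 fold changes of -0.75, -0.77 and -0.81.

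Besides *Sdr*, no ligand or binding protein passed the test: in this list of 10 genes, of which 8 were tested, 2 fold changes were positive and 6 negative. Over all 9668 genes tested, 4993 were positive and 4675 negative. *Ilp3*, an insulin-like peptide of the brain's insulin-producing cells, had 473.2, 501.0 and 544.3 normalized counts in controls and 352.2, 460.2 and 400.9 in Alk-YS, without overlap (log2 fold change -0.33, adjusted p = 0.316; named after its values were seen). *Ilp2*, the peptide with the highest FPKM of the list, at 91.9 in controls and 92.1 in Alk-YS, had a log2 fold change of -0.01 (adjusted p = 0.991). *Imp-L2*, a secreted binding protein of insulin-like peptides, was at 3335 ± 327 and 3215 ± 568 normalized counts. *Ilp4* was listed at 0 in all libraries, and *Ilp8* stayed under the filter on low values.

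In the PI3K branch 0 of 8 genes passed (0 also at an unadjusted p under 0.05), 4 were higher and 4 lower, and the median was 0.00. The Akt-activating kinase *Pdk1* had 4616 ± 778 normalized counts in controls and 5097 ± 496 in Alk-YS (adjusted p = 0.735). Groups overlapped for *Pdk1* and for all other genes of this list.

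Of the TOR complex partners 3 were tested and 0 passed (0 also unadjusted). *raptor*, the subunit that defines TORC1, was the least abundant and most variable of them, with 147.5, 142.0 and 506.9 normalized counts in controls and 210.2, 489.0 and 178.6 in Alk-YS. Its high libraries, control replicate 3 and Alk-YS replicate 2, were those in which *Tor* was also highest, and the FPKM ratio of *Tor* to *raptor* still ranged from 3.39 to 8.36 in controls and 3.27 to 7.24 in Alk-YS. *Lst8*, a subunit of both complexes, differed by no more than 1.11-fold among the libraries, with a log2 fold change of -0.01 (adjusted p = 0.980). Exons of *raptor* overlap *Mipp2* and an antisense RNA gene, and those of *Lst8* overlap *Gga*, so reads may be mixed as for *chico*. *Sesn*, *Maf1*, *RpS6* and *Imp-L2*, named here for other lists, also have exon overlaps with other annotated genes or elements.

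Among the 15 regulators of TORC1, 0 passed the test and 3 were lower at an unadjusted p under 0.05, with 3 fold changes positive, 12 negative and a median of -0.05. Of all 9668 genes tested, 745 were lower at that p, and 4993 fold changes were positive and 4675 negative. No test was made of the list as a set. *path*, an amino acid transporter tied to growth control, had 7223, 8525 and 6481 normalized counts in controls and 6333, 6432 and 4821 in Alk-YS. Its groups were separated by a narrow gap, and the log2 fold change was -0.34 (SE 0.15, adjusted p = 0.350). The other 2 were named after their values were seen: *scyl*, a stress-induced inhibitor of TORC1, at 8477 ± 450.4 and 6775 ± 288 (log2 fold change -0.32, adjusted p = 0.0896, groups apart), and *Sesn*, a stress-responsive inhibitor of TORC1, at 585.4 ± 98.8 and 410.8 ± 77.2 (log2 fold change -0.51, adjusted p = 0.252, groups overlapping). *scyl* passed with DESeq2 (adjusted p = 0.00452) and with the length trend removed (adjusted p = 0.0331). The direct activator *Rheb* and its inhibitor's subunits *Tsc1* and *gig* had overlapping groups and log2 fold changes of 0.06, -0.03 and -0.10.

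Among 11 outputs of TORC1, 0 passed the test (0 also unadjusted), 7 were positive and 4 negative, and the median was 0.05. *Maf1*, a repressor of RNA polymerase III held back by TORC1, had 3669, 4230.4 and 3728 normalized counts in controls and 3360, 3598 and 3470.3 in Alk-YS. The lowest control was just above the highest Alk-YS library (log2 fold change -0.15, SE 0.09, adjusted p = 0.525). The autophagy gene *Atg13* was separated the other way, with a log2 fold change of 0.13 (adjusted p = 0.631; named after its values were seen). *RpS6*, the ribosomal protein that S6k phosphorylates, had a log2 fold change of 0.10 (adjusted p = 0.853).

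Of 4 genes listed as Foxo targets, 3 were tested and 0 passed by limma (1 higher at an unadjusted p under 0.05). *Lip4*, a lipase gene, had 683.3, 887.1 and 659.5 normalized counts in controls and 1080, 1136 and 1116 in Alk-YS. Every Alk-YS library was above every control, with a fold of 1.51 (interval 1.23 to 1.85; log2 fold change 0.59, SE 0.13, adjusted p = 0.0565 by limma). It passed with DESeq2 (adjusted p = 0.00301) and with limma's robust variance estimate (0.0495), and without control replicate 2 (0.0318). The lipase gene *bmm* and the gene *step* overlapped between genotypes, with log2 fold changes of 0.16 and -0.08, and *Pepck1* was listed at 0 in all libraries.

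**Figure D5:**
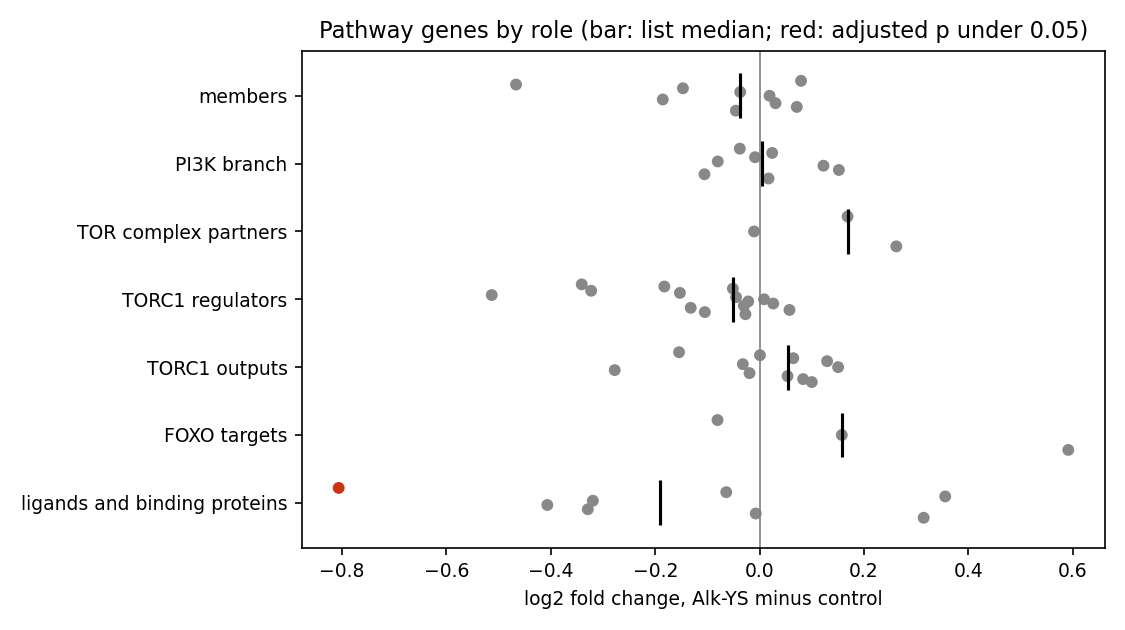
Log2 fold change of Alk-YS over control for the 9 genes and for the tested genes of the 6 other pathway lists (dots; bars are list medians; red marks an adjusted p under 0.05 by limma). The single red dot is *Sdr* at -0.81, and the list medians lie between -0.19 and 0.17.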

How the data were processed

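The libraries were sequenced by a commercial provider. Per the labels the authors aligned reads with HISAT2 (version 2.0.5), counted them per gene with featureCounts (1.5.0-p3) and scaled them with DESeq2 (1.20.0). The study's methods name the Ensembl BDGP6 assembly, and the counting strand is not given in the sources used here. The authors deposited normalized counts, a signal equal to the read count divided by a library size factor, for 13416 genes, and FPKM for 17558 genes. All normalized values were whole multiples of 1 read within 0.01 (100.0% in each library), so reads could be recovered. The deposited table also held log2 fold changes, p-values and adjusted p-values of the authors' own comparison, which were not used.

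The 9668 genes averaging 10 or more normalized counts entered the test, made with limma on log2 values after adding a pseudocount of 1 (3.58.1, R 4.3.3; moderated, with a mean-variance trend, two-sided, Benjamini-Hochberg over all genes tested, threshold 0.05), and fold changes are on that scale. Normalized counts are not counts, so the count models that the study used, DESeq2 (1.42.0 here), and edgeR (4.0.16) were run on recovered reads as alternatives. Single values were also compared by exact permutation of the 6 libraries. Other alternatives were the pseudocount, the filter, the scaling, the FPKM table, the variance estimate, a replicate block and leaving out each library. The 6 pathway lists were compiled from general knowledge. Besides all 9 members, genes named from them were those past the threshold and, per list, the one with the largest change among genes whose groups did not overlap, and others are marked as named after their values were seen or given for their role. The members and lists were chosen with earlier results of these data known. Positions are those in the authors' table, and 98.4% of the gene identifiers found in the Ensembl 115 annotation of BDGP6 had the same coordinates there. Of these steps, only the limma test was tried on simulated reads.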

Additional observations from a re-analysis of the deposited data

How the results depend on the processing

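No alternative called any of the 9 genes. *Akt*, *S6k*, *foxo* and *Thor* kept a negative sign under every alternative. Leaving out 1 library turned the sign of the other 5, none of which passed the test: the log2 fold change ranged from -0.18 to 0.11 for *InR*, -0.045 to 0.23 for *chico*, -0.10 to 0.16 for *Pi3K92E*, -0.11 to 0.20 for *Tor* and -0.024 to 0.15 for *rictor*. It was -0.0042 for *Tor* with edgeR. The count of all genes called, 287 in the limma fit, was 612 with DESeq2, 84 at an adjusted p under 0.01, and 105 to 336 when 1 library was left out. Of the other pathway genes, 1 was called in that fit, 2 with a robust variance estimate, 3 with DESeq2, 2 with the length trend removed, 0 at an adjusted p under 0.01, and 0 to 1 when 1 library was left out. The cause of these differences was not tested.

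Replicate numbers matched the libraries only in part: deviations from the group means of same-numbered libraries correlated at -0.12, 0.35 and 0.41. Control replicates 2 and 3 correlated best with the Alk-YS library of the same number. Control replicate 1 correlated best with Alk-YS replicate 2 (0.32). With the replicate block, 284 genes were called, 0 of the 9 members and 1 other pathway gene, and the lowest adjusted p of a member was 0.636. With 3 libraries per genotype, the interval of *Thor* covers folds from 0.468 to 1.12.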
